A study of Homo sapiens with 12 samples.

Results

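The NKG2D ligands and B7 family members followed here are 9 genes, chosen by symbol: MICA, MICB, ULBP1, ULBP2, ULBP3 and RAET1G as ligands of NKG2D, and CD274, CD276 and VTCN1 as B7 family ligands. All 9 were found among the 59324 genes of the expression table. Total RNA was sequenced in MDA-MB-468, an established cell line from a human breast carcinoma without hormone receptors or HER2 amplification (triple-negative), in 12 libraries that form 4 groups of 3. The combination group received sonidegib at 10 µM as a pretreatment for 72 h and SAHA at 10 µM for 12 h. The SAHA group received 10 µM for 12 h, the sonidegib group received 10 µM for 72 h, and the last group was labelled control. SAHA, also named vorinostat, blocks histone deacetylases that use zinc. Sonidegib blocks Smoothened, through which the Hedgehog signal enters the cell. The labels do not say how long control cells were kept, whether sonidegib remained present during SAHA, or whether replicates were separate cultures. The p-values therefore cover the spread among these libraries, which may be technical.

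NKG2D is an activating receptor on natural killer cells and on many cytotoxic T cells. Its ligands resemble MHC class I molecules, are scarce on most resting cells, and appear on the surface of stressed, infected or transformed cells, where they mark the cell for killing. Histone deacetylase inhibitors are known to raise several of them in tumour lines. B7 family ligands act on T cells in the other direction in many settings: CD274 (PD-L1) engages the inhibitory receptor PD-1, whereas CD276 (B7-H3) and VTCN1 (B7-H4) are surface proteins of many carcinomas that are mostly described as dampening T cell responses.

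Values are TPM, a level corrected for transcript length and scaled to the library total. Changes were tested as log2(TPM + 1) with limma over the 13937 genes that averaged 1 TPM or more, and a gene was called at a Benjamini-Hochberg adjusted p under 0.05. Because of the added 1, a log2 change understates the change of a low gene. Of the 9 genes, 8 passed this filter, while CD274 averaged 0.547 TPM over the 12 libraries and was tested only in a fit without the minimum. RNA was taken from whole cultures, so more RNA in every cell and more cells that make the RNA cannot be told apart.

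The libraries divided by sonidegib in their 5S ribosomal RNA. The 17 genes of 5S ribosomal RNA were at 0 in each of the 6 libraries not given sonidegib and held 1487.53 to 12640.7 TPM in each of the 6 that were given it. Mitochondrial ribosomal RNA held 2.41% to 2.86% of the TPM in combination libraries, 1.18% to 1.35% in SAHA libraries, 2.06% to 2.48% in sonidegib libraries and 0.565% to 0.670% in control libraries. This share was higher with sonidegib, and it also separated SAHA from control libraries. A sonidegib effect cannot be told apart from a difference in preparation that follows the same division, which touches every comparison below except the combination against sonidegib and SAHA against control. The 7 epithelial markers were all tested and summed to 5492.38 to 11368.3 TPM, with KRT19 the highest. The sum was lower in the combination and sonidegib libraries than in the SAHA and control libraries, but not every marker followed it. Against control, 3 rose and 2 fell with SAHA (31.8% and 26.9% of all tested genes). With sonidegib 0 rose and 5 fell (26.1% and 29.2%), and with the combination 1 rose and 5 fell (29.7% and 34%). CDH1 rose with SAHA (1.14) and with the combination (0.67). The part of the epithelial markers in the results was not tested. Of the receptors that are low in triple-negative cells, PGR was at 0 in all 12 libraries and ESR1 was at 0.23 to 1.76 TPM. ERBB2 averaged 6.48 TPM in combination cells, 3.94 TPM in SAHA cells, 24.4 TPM in sonidegib cells and 10.4 TPM in control cells, and was called higher with sonidegib (1.16) and lower with SAHA (-1.22) and with the combination (-0.61). Of 13 leukocyte markers 3 were tested, and the list summed to 217.18 to 233.19 TPM in combination libraries, 311.82 to 347.72 TPM in SAHA libraries, 314.5 to 324.06 TPM in sonidegib libraries and 302.37 to 326.67 TPM in control libraries. Nearly all of that sum was CD14, a monocyte marker, while PTPRC, the marker common to leukocytes, was at most 0.01 TPM. CD68, a lysosomal protein used as a macrophage marker, rose as many of the ligands did, with log2 changes of 1.02 for the combination, 1.10 for SAHA and 1.24 for sonidegib. It was the only one of the 3 to rise. None of them fell with SAHA or with sonidegib, and CD14 fell with the combination (-0.52). The shares of all tested genes are those given above for the epithelial markers. Of 9 fibroblast and endothelial markers only COL1A1 was tested, and it rose by 1.13 with the combination, 1.43 with SAHA and 0.44 with sonidegib, the last of which was not called under quantile normalization. That list summed to 10 to 10.43 TPM in combination libraries, 11.04 to 13.96 TPM in SAHA libraries, 5.21 to 8.16 TPM in sonidegib libraries and 3.51 to 4.82 TPM in control libraries. The part of these markers in the ligand results was not tested. None of 15 receptor genes of natural killer and T cells was tested, and their sum was at most 1.6 TPM in a library. CDKN1A, a growth arrest gene that deacetylase inhibitors are known to raise, rose with SAHA by 4.42 on the log2 scale (limma, adjusted p = 1.51e-10). It was also called higher with sonidegib (1.27) and with the combination (3.47). PTCH1, a gene of the Hedgehog pathway, was called higher and not lower with sonidegib (0.60), and also with SAHA (0.84) and the combination (0.93). The cause of the PTCH1 rise was not tested.

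In GENCODE release 29 coordinates of GRCh38, the NKG2D ligand genes lie in 2 stretches of chromosome 6. MICA (chr6:31399784-31415315) and MICB (chr6:31494881-31511124), both on the plus strand, lie in the MHC region. RAET1G (chr6:149916878-149923121, minus), ULBP2 (chr6:149942000-149949235, plus), ULBP1 (chr6:149964007-149973710, plus) and ULBP3 (chr6:150063150-150069095, minus) form a cluster elsewhere on that chromosome. CD274 lies at chr9:5450503-5470566 (plus), CD276 at chr15:73683966-73714518 (plus) and VTCN1 at chr1:117143587-117210960 (minus). These are whole genes with exons, introns and untranslated regions, and the TPM sum over a gene's transcripts. Of the possible 50-base stretches of ULBP2 transcripts, 32.2% also occur in another gene, chiefly RAET1L (29.4%) and RAET1G (11.6%). The share is 18.3% for RAET1G and 12.4% for ULBP3, and it is 6.85% or less for each of the other members, so values of ULBP2 and RAET1G are the least certain. RAET1E-AS1 lies antisense over 9.29% of the RAET1G exon bases, and HCP5 shares 2.6% of those of MICA on the same strand. RAET1E-AS1 differed between SAHA and control by -0.014 (limma, adjusted p = 0.975), while RAET1G rose.

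The 250 bases before the start annotated by RefSeq are shown for the pairs whose responses are compared below, and for ULBP1 and VTCN1, whose patterns differed from theirs. Sequences are from RefSeq, GRCh38.p14, 5′ to 3′ on the strand of the gene: MICA chr6:31403345-31403594 (plus), MICB chr6:31497895-31498144 (plus), ULBP2 chr6:149941764-149942013 (plus), RAET1G chr6:149923122-149923371 (minus), ULBP1 chr6:149963693-149963942 (plus) and VTCN1 chr1:117210928-117211177 (minus). The RefSeq starts of MICA and MICB lie 3811 and 3264 bases inside the GENCODE gene spans given above, so these windows fall within those spans, whereas the RefSeq and GENCODE starts of the other genes shown differ by at most 64 bases. Capitals mark GC boxes (GGGCGG, either strand) and CCAAT boxes (CCAAT, either strand).
MICA: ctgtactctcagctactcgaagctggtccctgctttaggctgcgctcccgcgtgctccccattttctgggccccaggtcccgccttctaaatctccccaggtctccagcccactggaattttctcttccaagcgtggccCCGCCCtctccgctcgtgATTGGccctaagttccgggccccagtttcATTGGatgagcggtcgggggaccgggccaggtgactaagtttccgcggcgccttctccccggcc
MICB: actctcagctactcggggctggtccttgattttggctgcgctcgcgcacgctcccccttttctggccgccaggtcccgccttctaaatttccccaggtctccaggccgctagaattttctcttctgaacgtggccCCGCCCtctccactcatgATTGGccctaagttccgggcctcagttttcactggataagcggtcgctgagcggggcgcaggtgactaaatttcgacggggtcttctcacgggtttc
ULBP2: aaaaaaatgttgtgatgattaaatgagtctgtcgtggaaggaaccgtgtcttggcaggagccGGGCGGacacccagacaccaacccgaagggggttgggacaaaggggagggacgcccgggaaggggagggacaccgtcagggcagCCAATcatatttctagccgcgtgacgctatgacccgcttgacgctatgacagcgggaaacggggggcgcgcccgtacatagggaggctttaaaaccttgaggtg
RAET1G: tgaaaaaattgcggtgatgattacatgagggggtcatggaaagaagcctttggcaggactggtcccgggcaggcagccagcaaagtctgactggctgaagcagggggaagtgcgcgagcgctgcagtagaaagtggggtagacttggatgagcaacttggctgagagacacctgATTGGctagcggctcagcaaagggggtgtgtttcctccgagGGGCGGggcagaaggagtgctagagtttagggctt
ULBP1: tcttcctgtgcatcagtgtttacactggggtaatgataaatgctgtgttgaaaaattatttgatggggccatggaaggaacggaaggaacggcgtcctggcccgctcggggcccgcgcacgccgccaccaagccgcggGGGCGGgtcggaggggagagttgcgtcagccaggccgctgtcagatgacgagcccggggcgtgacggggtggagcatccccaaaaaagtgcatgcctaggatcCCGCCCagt
VTCN1: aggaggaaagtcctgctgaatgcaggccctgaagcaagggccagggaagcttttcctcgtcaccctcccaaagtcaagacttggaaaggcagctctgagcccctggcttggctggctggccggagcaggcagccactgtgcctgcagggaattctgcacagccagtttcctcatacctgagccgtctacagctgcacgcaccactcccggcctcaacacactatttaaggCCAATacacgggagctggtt

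A GC box was present in 42.6% and a CCAAT box in 32% of 35116 RefSeq promoters of this length. MICA and MICB share a GC box, 105 and 109 bases before the start, and a CCAAT box, 88 and 92 bases before it, and MICA has a further CCAAT box at 59 bases. Both also hold a pair of heat shock half-sites (GAANNTTC, either strand, found in 5.78% of promoters), 127 and 131 bases before the start. These windows are identical in 209 of 246 aligned bases (85%). RAET1G and ULBP2 each hold a GC box, 29 and 182 bases before the start, and a CCAAT box at 71 and 99 bases. Their windows match in 148 of 225 aligned bases (65.8%), which is within the 46% to 66.8% seen over the other pairs of members apart from MICA and MICB. ULBP1 has 2 GC boxes and no CCAAT box, and VTCN1 has no GC box and a CCAAT box 15 bases before the start. No window of the 9 members held the letters of an AP-1 site (TGANTCA, 6.57% of promoters), of an ATF4-CHOP composite site (TGATGNAA, 3.14%), of a cyclic AMP response element (TGACGTCA, 1.65%) or of the E-box CACGTG (6.34%), on either strand. A match is a run of letters and does not show that a factor binds.

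NKG2D ligand RNA was highest after SAHA alone. The 6 ligands summed to 125.38, 137.49 and 150.64 TPM in combination libraries, 237.43, 247.19 and 245.38 TPM in SAHA libraries, 74, 70.96 and 82.82 TPM in sonidegib libraries and 53.37, 56.97 and 55.85 TPM in control libraries. The groups did not overlap, and the combination lay between SAHA and sonidegib. MICA and MICB together made up 72.8% of the sum in combination cells, 78.8% in SAHA cells, 72.3% in sonidegib cells and 88.2% in control cells (means of 3 libraries). ULBP2 had the next largest share, at 16.2% in combination cells, 10.4% in SAHA cells, 12.9% in sonidegib cells and 4.91% in control cells. The stacked levels per library show that the treated groups differ in make-up as well as in total.

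**Figure D1:**
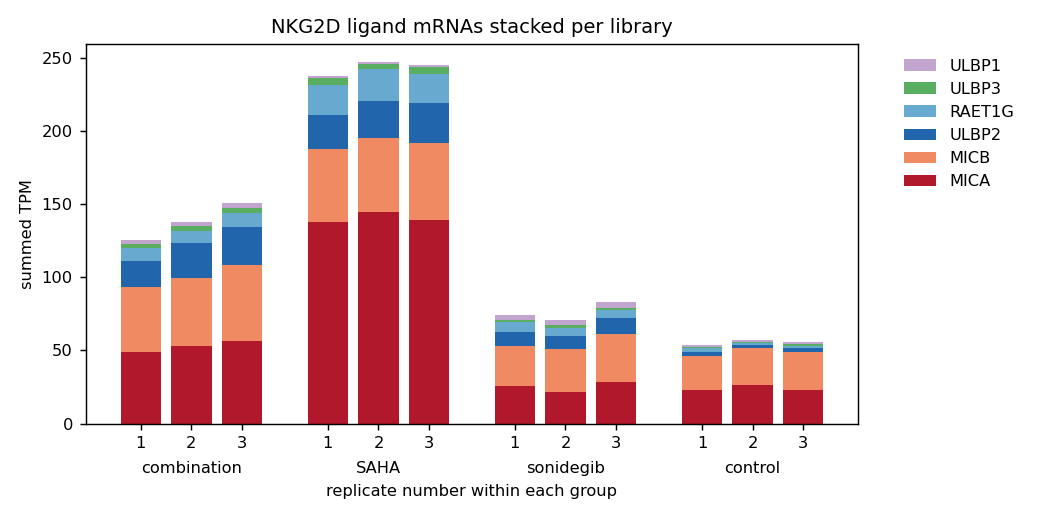
Stacked TPM of the NKG2D ligands in each of the 12 libraries, grouped as combination, SAHA, sonidegib and control; each colour is a ligand. SAHA libraries reach 237.43 to 247.19 TPM, with MICA as the largest block, whereas control libraries stay at 53.37 to 56.97 TPM.

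MICA, a transmembrane NKG2D ligand, was the most abundant ligand after SAHA. It measured 49.1, 53.32 and 56.54 TPM in combination libraries, 137.94, 144.35 and 139.23 TPM in SAHA libraries, 25.74, 21.58 and 28.45 TPM in sonidegib libraries and 22.87, 26.29 and 22.83 TPM in control libraries. Sonidegib and control libraries overlapped, and the other groups stood apart from them and from each other. With SAHA alone the mean TPM of MICA was 5.86 times that of control, and the log2 change of TPM + 1 was 2.50 ± 0.095 (SE, limma, adjusted p = 3.47e-09, n = 3 per group). The combination exceeded control by 1.11 (adjusted p = 1.23e-06) and fell short of SAHA alone by a log2 change of -1.39 (adjusted p = 5.56e-07), at 0.377 of the SAHA level. For sonidegib against control the log2 difference was 0.065, with an interval from -0.14 to 0.27 (adjusted p = 0.588).

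MICB, the closest relative of MICA, was raised in both groups that received SAHA. It measured 43.94, 46.32 and 51.63 TPM in combination libraries, 49.61, 51.14 and 52.7 TPM in SAHA libraries, 27.48, 29.04 and 32.65 TPM in sonidegib libraries and 23.5, 25.26 and 25.89 TPM in control libraries. The combination overlapped SAHA and lay above sonidegib and control. SAHA raised it by 1.01 ± 0.078 on the log2 scale (limma, adjusted p = 6.43e-07) and the combination by 0.90 (adjusted p = 1.39e-06), both against control. The combination differed from SAHA by -0.11, with an interval from -0.28 to 0.058 (adjusted p = 0.248), and this difference was 0.020 under median-of-ratios scaling and 0.056 under quantile normalization. The rise with sonidegib was 0.24 (adjusted p = 0.0195). Its call was lost without control replicate 1 (0.21, adjusted p = 0.0713) or without sonidegib replicate 3 (0.18, adjusted p = 0.0814).

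The ratio of MICA to MICB was highest with SAHA alone. It was 1.12 ± 0.0282 in combination cells, 2.75 ± 0.0945 in SAHA cells, 0.850 ± 0.0985 in sonidegib cells and 0.965 ± 0.0798 in control cells (mean ± SD, n = 3). SAHA libraries lay at 2.64 to 2.82 and combination libraries at 1.10 to 1.15, with no overlap with each other or with any other group.

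**Figure D2:**
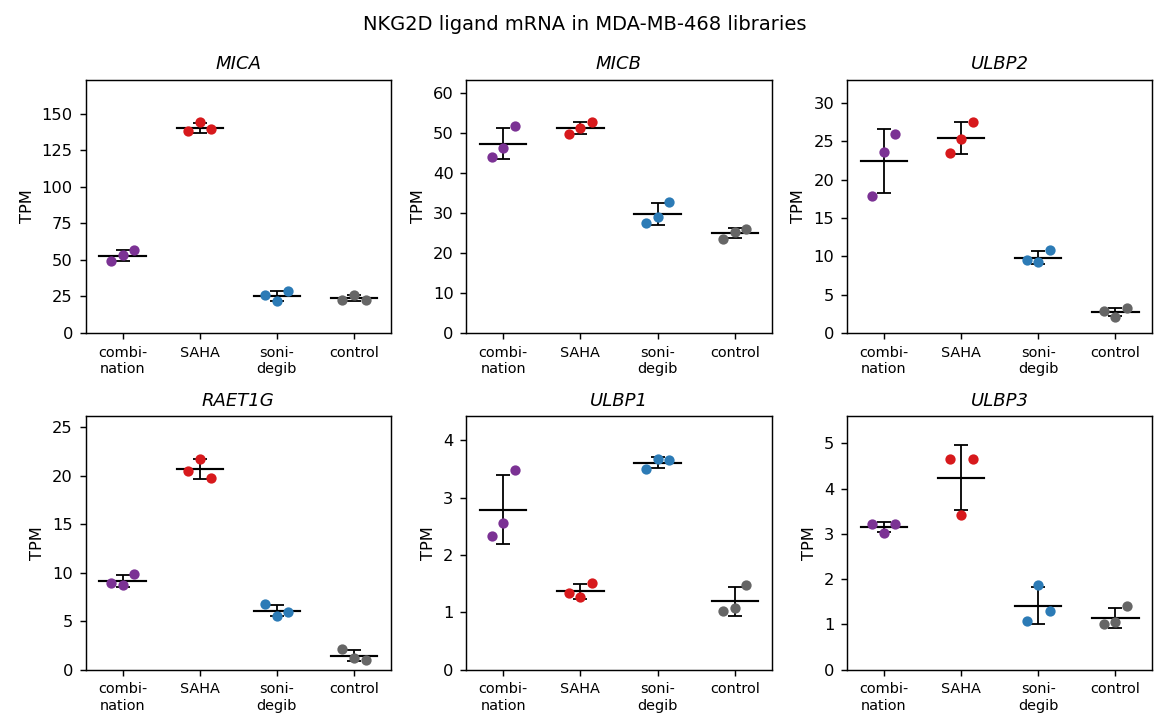
TPM of each NKG2D ligand by library, with the mean and SD of each group, in the order combination, SAHA, sonidegib and control. MICA and RAET1G are highest with SAHA alone, ULBP2 and MICB overlap in combination and SAHA libraries, and ULBP1 is highest with sonidegib alone.

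ULBP2 and RAET1G (also called ULBP5) changed most relative to their low control levels. ULBP2 measured 17.86, 23.57 and 25.89 TPM in combination libraries, 23.42, 25.26 and 27.52 TPM in SAHA libraries, 9.46, 9.24 and 10.79 TPM in sonidegib libraries and 2.82, 2.11 and 3.2 TPM in control libraries. Combination and SAHA libraries overlapped, sonidegib libraries lay below them, and control libraries were lowest. Against control, it rose with SAHA by 2.84 ± 0.14 on the log2 scale (limma, adjusted p = 2.45e-08), with sonidegib by 1.55 (adjusted p = 3.77e-06) and with the combination by 2.65 (adjusted p = 2.98e-08). The combination differed from SAHA by -0.18, with an interval from -0.50 to 0.13 (adjusted p = 0.307).

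RAET1G measured 8.93, 8.7 and 9.89 TPM in combination libraries, 20.48, 21.77 and 19.76 TPM in SAHA libraries, 6.74, 5.56 and 5.98 TPM in sonidegib libraries and 2.16, 1.19 and 1.05 TPM in control libraries. No library of a group overlapped another group. With SAHA its mean TPM was 14.1 times that of control. The log2 change of TPM + 1 was 3.16 ± 0.15 (limma, adjusted p = 1.26e-08), which is 8.94-fold and ranked 25 from the highest of the 13937 genes. Against control the rise was 2.07 in the combination (adjusted p = 2.43e-07) and 1.55 in sonidegib cells (adjusted p = 4.44e-06). It was lower in the combination than with SAHA alone, by a log2 change of -1.09 (adjusted p = 7.96e-05). It exceeded the sonidegib level in the combination by 0.52 (adjusted p = 0.0146), a call lost without sonidegib replicate 2 (0.47, adjusted p = 0.0565) or without combination replicate 3 (0.47, adjusted p = 0.0520). The ratio of RAET1G to ULBP2 was 0.417 ± 0.0721 in combination cells, 0.818 ± 0.0869 in SAHA cells, 0.623 ± 0.0812 in sonidegib cells and 0.553 ± 0.219 in control cells (mean ± SD, n = 3).

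ULBP1, a ligand held in the membrane by a lipid anchor, was the exception among the ligands: it rose with sonidegib and was not called with SAHA. It measured 2.34, 2.56 and 3.48 TPM in combination libraries, 1.33, 1.26 and 1.51 TPM in SAHA libraries, 3.5, 3.68 and 3.65 TPM in sonidegib libraries and 1.02, 1.07 and 1.48 TPM in control libraries. Only SAHA and control overlapped. Against control the rise was 0.79 in the combination (limma, adjusted p = 0.000487) and 1.08 in sonidegib cells (adjusted p = 6.22e-05). With SAHA the difference was 0.12, with an interval from -0.20 to 0.43 (adjusted p = 0.508), and its sign turned under quantile normalization (-0.028). The combination exceeded SAHA by 0.67 (adjusted p = 0.00215). It lay below sonidegib by a log2 difference of -0.29 that was not called (adjusted p = 0.130), and that was -0.42 and called without combination replicate 3 (adjusted p = 0.0368).

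ULBP3, a further lipid-anchored ligand, was raised in both groups that received SAHA. It measured 3.21, 3.02 and 3.21 TPM in combination libraries, 4.65, 3.41 and 4.66 TPM in SAHA libraries, 1.08, 1.86 and 1.3 TPM in sonidegib libraries and 1, 1.05 and 1.4 TPM in control libraries. Sonidegib and control overlapped and the other groups did not. SAHA raised it by 1.28 ± 0.16 (limma, adjusted p = 2.56e-05) and the combination by 0.95 (adjusted p = 0.000226), both against control. With sonidegib the difference was 0.16 (interval -0.18 to 0.50, adjusted p = 0.412). The combination against SAHA gave -0.33 (adjusted p = 0.0999), which was -0.45 and called without SAHA replicate 2 (adjusted p = 0.0402).

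The remaining human genes of the family stayed near the bottom of the scale. RAET1L measured 0.37, 0.19 and 1.06 TPM in combination libraries, 1.07, 0.93 and 1.43 TPM in SAHA libraries, 0.14, 0.13 and 0.45 TPM in sonidegib libraries and 0.09, 0 and 0 TPM in control libraries. In the fit without the minimum it rose with SAHA by 1.05 ± 0.19 (limma, adjusted p = 0.00158), and its transcripts share sequence with ULBP2. RAET1E was at 0.29 to 1.11 TPM in combination libraries, 0.29 to 0.76 TPM in SAHA libraries, 0.33 to 0.64 TPM in sonidegib libraries and 0.03 to 0.07 TPM in control libraries, and only the combination against control was called (0.60, adjusted p = 0.0254).

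Counted over the 6 ligands, SAHA raised 5 and lowered 0, where 31.8% of all tested genes were called higher and 26.9% lower. Sonidegib raised 4 and lowered 0 (26.1% higher and 29.2% lower over all genes), and the combination raised 6 and lowered 0 (29.7% higher and 34% lower). The median log2 change of the 6 was 1.89 for SAHA (0.045 over all tested genes), 0.66 for sonidegib (-0.022) and 1.03 for the combination (-0.024). These comparisons share the control libraries. Over all 8 tested members, the libraries of SAHA and control did not overlap for 7 (63.7% of all tested genes), those of sonidegib and control for 5 (62.3%), and those of the combination and control for 8 (66.9%). Set against sonidegib, the combination raised 5 and lowered 0 (17.5% higher and 21% lower over all genes), with a median of 0.72, and all 8 tested members had no overlap (49.6% of all genes). Set against SAHA, the combination raised ULBP1 and lowered MICA and RAET1G (18% higher and 33% lower over all genes), with a median of -0.26, and 6 of the 8 tested members had no overlap (57% of all genes). For the combination against SAHA the median over all genes was -0.115, and higher genes made up 35.3% of all calls as deposited, 49.7% under median-of-ratios scaling and 50.3% under quantile normalization, but the ligand counts were 1 and 2 under each.

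Whether the response to SAHA differed after sonidegib was tested by the interaction, the change of combination over sonidegib minus the change of SAHA over control. It was negative and called for 4 of the 6 ligands and positive and called for 0, where 11.8% of all genes were called positive and 19.7% negative. RAET1G gave -2.64 ± 0.21 (limma, adjusted p = 5.49e-06), which ranked 37 from the lowest, ULBP2 gave -1.74 ± 0.20 (adjusted p = 8.68e-05) and MICA gave -1.46 ± 0.13 (adjusted p = 1.76e-05). For RAET1G the SAHA response was 0.52 after sonidegib and 3.16 without it, for ULBP2 it was 1.10 and 2.84, and for MICA it was 1.05 and 2.50. ULBP2 and RAET1G were already raised in sonidegib cells, whereas MICA was not called there. MICB gave -0.36 ± 0.11 (adjusted p = 0.0287), and its call was lost in turn without control replicate 1, SAHA replicate 3, sonidegib replicate 3, combination replicate 1 or combination replicate 2 (-0.29 to -0.35, adjusted p = 0.0605 to 0.0652). ULBP1 (-0.41, adjusted p = 0.148) and ULBP3 (-0.49, adjusted p = 0.116) were not called, although ULBP1 was without combination replicate 3 (-0.54, adjusted p = 0.0483). Positive genes made up 37.5% of all interaction calls as deposited, 53.4% under median-of-ratios scaling and 49.9% under quantile normalization, and the ligand counts were 0 and 4 under each.

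**Figure D3:**
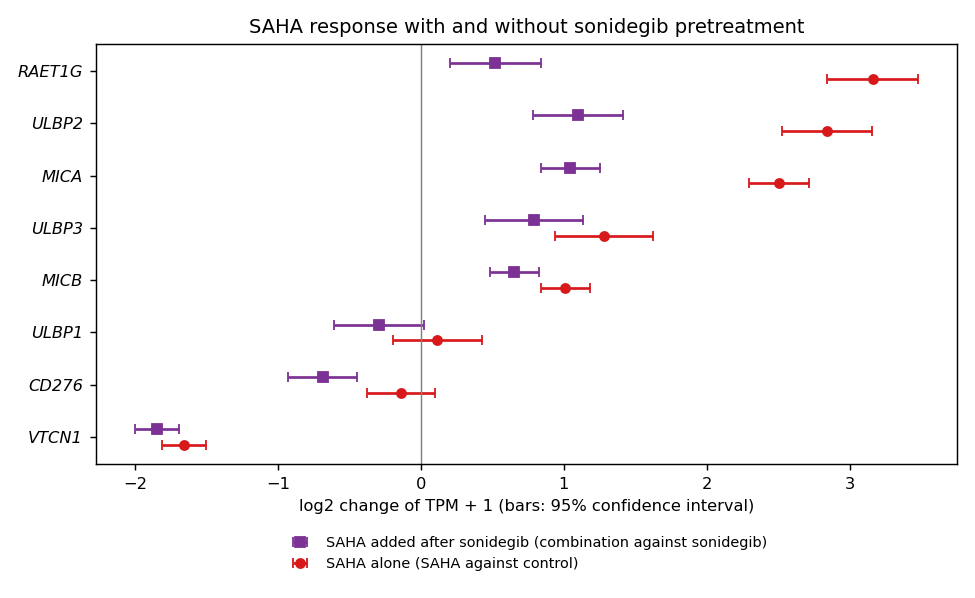
Log2 change with SAHA after sonidegib (combination over sonidegib) and without it (SAHA over control) for each tested member, with 95% confidence intervals. RAET1G, ULBP2 and MICA have the widest gaps between the responses, and VTCN1 falls in both.

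VTCN1, the B7 ligand with the highest control level, fell in every comparison against control. It measured 17.46, 18.79 and 19.94 TPM in combination libraries, 29.73, 27.26 and 31.57 TPM in SAHA libraries, 70.76, 68.65 and 70.43 TPM in sonidegib libraries and 93.63, 90.28 and 101.25 TPM in control libraries. No groups overlapped. Against control the combination gave a log2 change of -2.28 ± 0.070 (limma, adjusted p = 4.61e-10), at 0.197 of the control level. SAHA gave -1.65 (adjusted p = 6.88e-09), and sonidegib gave -0.44 (adjusted p = 0.000278), which was -0.25 under quantile normalization. The combination gave -0.63 against SAHA (adjusted p = 2.01e-05) and -1.85 against sonidegib (adjusted p = 4.67e-08). The interaction was -0.19, with an interval from -0.41 to 0.024 (adjusted p = 0.164), and was called under quantile normalization (-0.24, adjusted p = 0.0213).

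CD276 was reduced chiefly in the combination. It measured 11.7, 12.72 and 13.63 TPM in combination libraries, 24.69, 24.26 and 22.78 TPM in SAHA libraries, 19.26, 18.62 and 25.74 TPM in sonidegib libraries and 24.95, 26.84 and 27.55 TPM in control libraries. Combination libraries lay below all others, while sonidegib replicate 3 fell among the controls. The log2 change of the combination was -1.01 ± 0.11 against control (limma, adjusted p = 8.78e-06), -0.87 against SAHA (adjusted p = 5.18e-05) and -0.69 against sonidegib (adjusted p = 0.000502). For SAHA against control it was -0.14, with an interval from -0.38 to 0.10 (adjusted p = 0.295). Sonidegib against control gave -0.32 (adjusted p = 0.0272), a call lost without control replicate 2 or 3 or without sonidegib replicate 1 or 2 (-0.24 to -0.31, adjusted p = 0.0691 to 0.112), with only the compared groups (adjusted p = 0.0752) and with no minimum (adjusted p = 0.0560). The interaction was -0.55 ± 0.15 (adjusted p = 0.0193).

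CD274 was barely detected. It measured 0.31, 0.29 and 0.55 TPM in combination libraries, 0.79, 0.72 and 2.12 TPM in SAHA libraries, 0.13, 0.29 and 0.17 TPM in sonidegib libraries and 0.59, 0.08 and 0.52 TPM in control libraries. SAHA libraries lay above all others. In the fit without the minimum, where 29.9% of genes were called for SAHA against control in either direction, the difference was 0.63 with an interval from 0.12 to 1.13 (limma, adjusted p = 0.0635). It was 0.35 without SAHA replicate 3 (adjusted p = 0.165), 0.78 and called without SAHA replicate 2 (adjusted p = 0.0439), and called after rescaling over nuclear protein-coding genes (0.71, adjusted p = 0.0269). The combination differed from SAHA by -0.62 (adjusted p = 0.0736), called only under the same rescaling (-0.69, adjusted p = 0.0373). Against control, sonidegib gave -0.20 (adjusted p = 0.609) and the combination gave 0.0017, with an interval from -0.50 to 0.51 (adjusted p = 1). Of the 2 B7 genes tested in the filtered fit, 1 was lower in SAHA cells (26.9% of all tested genes), 2 in sonidegib cells (29.2%) and 2 in the combination (34%), while 0 were higher.

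**Figure D4:**
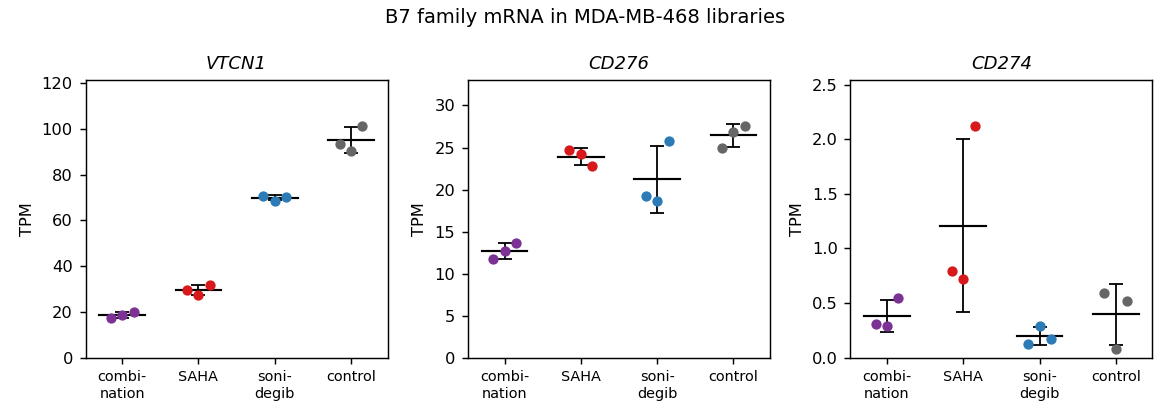
TPM of VTCN1, CD276 and CD274 by library, with the mean and SD of each group, in the order combination, SAHA, sonidegib and control. VTCN1 is 17.46 to 19.94 TPM in combination libraries and 90.28 to 101.25 TPM in control libraries, CD276 is lowest in combination libraries, and CD274 reaches at most 2.12 TPM.

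Other B7 and butyrophilin genes moved in both directions. Of 14 looked for, 7 were tested, and 2 rose and 3 fell with SAHA against control (31.8% and 26.9% of all tested genes). Against control, 2 rose and 2 fell with sonidegib (26.1% and 29.2%), and 2 rose and 3 fell with the combination (29.7% and 34%). VSIR (VISTA, an inhibitory ligand) rose with SAHA by 1.44 (limma, adjusted p = 1.11e-07) and fell with sonidegib by 0.63 (adjusted p = 0.000114), and it was at -0.024 in the combination (adjusted p = 0.831). BTN2A2, a butyrophilin, rose with SAHA by 1.62 (adjusted p = 7.1e-07) and with the combination by 0.64 (adjusted p = 0.000888). ICOSLG, the ligand of the T cell costimulator ICOS, fell with SAHA by 0.72, with sonidegib by 0.87 and with the combination by 1.22 (adjusted p = 6.26e-05, 1.75e-05 and 7.23e-07). Among the butyrophilins that take part in phosphoantigen sensing by gamma delta T cells, BTN3A1 rose with sonidegib by 0.86 (adjusted p = 0.000519), and BTN3A3 fell with SAHA by 0.89 (adjusted p = 1.34e-05) and with the combination by 1.08 (adjusted p = 2.21e-06).

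Ligands of other natural killer and T cell receptors were followed as 19 genes, of which 15 were tested. With SAHA 7 rose and 2 fell (31.8% and 26.9% of all tested genes). Sonidegib gave 3 rises and 4 falls (26.1% and 29.2%), and the combination gave 4 rises and 6 falls (29.7% and 34%). NECTIN2, a ligand of the activating receptor DNAM-1 and of inhibitory receptors, rose with SAHA by 0.85, with sonidegib by 0.38 and with the combination by 0.59 (limma, adjusted p = 3.12e-07, 0.000231 and 5.2e-06). PVR, the other DNAM-1 ligand, rose with SAHA by 0.34 (adjusted p = 0.00515) but fell with sonidegib by 0.53 (adjusted p = 0.000316) and with the combination by 0.52 (adjusted p = 0.000277). HLA-E, the ligand of the inhibitory receptor NKG2A, rose with SAHA by 0.80 and with sonidegib by 0.44 (adjusted p = 2.99e-08 and 4.3e-06). CD47, a signal against uptake by macrophages, rose with SAHA by 0.45 (adjusted p = 0.00434) and fell with sonidegib by 0.90 (adjusted p = 3.54e-05). LGALS9, which encodes galectin-9, fell with SAHA by 1.37 (adjusted p = 2.77e-05) and was not called with sonidegib (-0.32, adjusted p = 0.126).

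**Figure D5:**
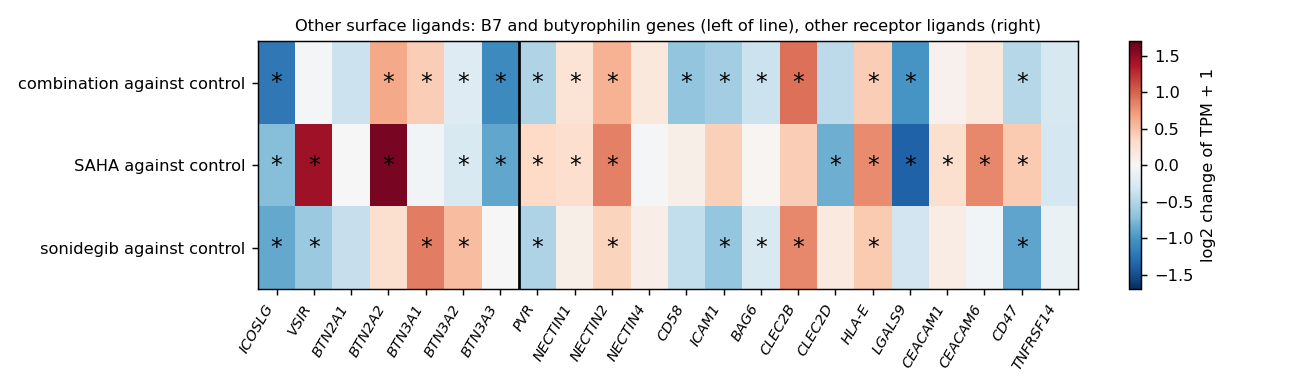
Log2 changes against control of tested genes for other B7, butyrophilin and natural killer or T cell ligands, with the combination, SAHA and sonidegib shown side by side. BTN2A2 and VSIR rise most with SAHA, and ICOSLG is lower in all of the comparisons.

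Proteases and partners of ligand shedding, by which MICA and MICB are cut from the cell surface, moved in both directions. Of 6 tested, 1 rose and 2 fell with SAHA (31.8% and 26.9% of all tested genes), and 1 rose and 3 fell with sonidegib (26.1% and 29.2%). With the combination 1 rose and 4 fell (29.7% and 34%). The falls with the combination numbered 2 under quantile normalization, and 3 under median-of-ratios scaling or after rescaling over nuclear protein-coding genes. ADAM10, a shedding protease, rose with SAHA by 0.51 (limma, adjusted p = 0.00869), and ADAM17, a related one, was at -0.014 (adjusted p = 0.934). TIMP3, an inhibitor of these proteases, fell with SAHA by 0.74, with sonidegib by 1.27 and with the combination by 1.44 (adjusted p = 1.77e-06, 4.52e-08 and 6.97e-09). Protein cleavage was not measured.

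Of 12 regulators that have been linked to NKG2D ligands, 0 rose and 8 fell with SAHA (31.8% and 26.9% of all tested genes). With sonidegib 2 rose and 6 fell (26.1% and 29.2%), and with the combination 2 rose and 7 fell (29.7% and 34%). ATF4, a stress transcription factor known to drive ULBP1, fell with SAHA by 0.37 (limma, adjusted p = 1.09e-05), and rose with sonidegib by 0.30 (adjusted p = 6.21e-05) and with the combination by 0.13 (adjusted p = 0.014). RBM4, a splicing factor required for normal ULBP1 RNA, fell with sonidegib by 1.06 and with the combination by 0.73 (adjusted p = 8.43e-07 and 9.84e-06). CHEK1, a kinase of the DNA damage checkpoint, fell with SAHA by 1.19 (adjusted p = 1.51e-06), and CHEK2, another such kinase, rose with sonidegib by 0.90 (adjusted p = 0.000259). EZH2, which writes a repressive histone mark, fell with SAHA by 0.68 and with sonidegib by 0.64 (adjusted p = 1.89e-05 and 3.95e-05). HSF1, SP1 and SP3 were called lower with SAHA, at log2 changes of -0.32, -0.31 and -0.65. HSF1 was also called lower with the combination (-0.53) and with sonidegib (-0.17), the last kept under 1 of 4 other settings. The part of these factors in the ligand results was not tested. Of 19 regulators linked to PD-L1, 7 rose and 5 fell with SAHA (31.8% and 26.9% of all tested genes). With sonidegib 6 rose and 8 fell (26.1% and 29.2%), and with the combination 9 rose and 8 fell (29.7% and 34%). JAK1 and IRF1, which carry interferon signals to CD274, rose with SAHA by 1.13 and 0.68 (adjusted p = 1.22e-08 and 5.18e-05), and MYC and NFKB1 fell with SAHA by 1.28 and 1.22 (adjusted p = 3.48e-07 and 5.41e-05).

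Genes near the ULBP cluster were partly called in the same comparisons. Within 250 kb of RAET1G, 7 genes other than the members were tested, of which 3 rose and 0 fell with SAHA, where 31.8% of all tested genes rose and 26.9% fell. PPP1R14C, a phosphatase inhibitor gene, rose with SAHA by 1.99, with sonidegib by 0.81 and with the combination by 1.84 (limma, adjusted p = 2.13e-08, 3.36e-05 and 2.91e-08), whereas NUP43, a nuclear pore gene, was not called in any of these. Of 22 tested neighbours of MICA other than MICB, 7 rose and 7 fell with SAHA. Of 4 tested neighbours of VTCN1, 1 rose and 1 fell with SAHA and with the combination. With the combination 29.7% of all tested genes rose and 34% fell. PTGFRN fell with SAHA by 0.37 and with the combination by 0.77 (adjusted p = 0.000584 and 1.38e-06), and MAN1A2 rose by 0.74 and 0.75 (adjusted p = 0.00381 and 0.00305).

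The tested genes most like each member were ranked by the root mean square difference of centred log2 values over the 12 libraries, as a description. For MICA they were CYB5R1 (0.165), NGFR (0.192) and EGR1 (0.197). RAET1G was nearest to ELOVL3 (0.255), KCTD17 (0.277) and MAPT (0.284), and ULBP2 to ZNF385A (0.168), MAPRE3 (0.180) and ADGRB2 (0.185). VTCN1 was nearest to SLC6A9 (0.0750) and then FOXA1 (0.149), and MICB to ATP6V1E1 (0.0652) and MAP2K1 (0.0667). For genes of small range, such as ULBP1, whose nearest was SEMA4B (0.0782), a small difference is also a matter of small change.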

How the data were processed

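RNA was sequenced from 12 libraries of MDA-MB-468 cells, 3 per group. The authors deposited TPM per gene, scaled to the same total in each library. Alignment with Bowtie2 2.4.1 and build GRCh38 are named in the submitters' processing notes. The quantifier, annotation, strandedness and RNA selection are not given in the sources used here. TPM keep no counts, so library depth is unknown and counting intervals could not be given. Groups and replicate numbers came from the labels, and no library was identical to another.

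Log2(TPM + 1) was fitted with limma 3.58.1 in R 4.3.3 as 4 group means with 8 residual degrees of freedom and an intensity trend, over the 13937 genes averaging 1 TPM or more. Tests were two-sided, adjusted by Benjamini-Hochberg within each of 6 comparisons over all tested genes, and called under 0.05. The interaction is combination minus sonidegib minus SAHA plus control. Intervals are 95%. The script was tested on simulated data. Alternatives were other scalings, a pseudocount of 0.1, no trend, no minimum, only the compared groups, a replicate block and leaving out each library.

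Named genes were the 9 members, up to 4 rises and 4 falls of the largest size per list among called genes, some genes within 250 kb of a member, and up to 3 genes most like each member; not all that met the rule are named. ADAM17, NUP43, ATF4 and others outside that rule were named after their values were seen. The members and the lists were chosen with earlier results of these data known. Gene positions and transcripts are from GENCODE release 29, and promoters from RefSeq.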

Additional observations from a re-analysis of the deposited data

Results flagged for a closer look

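The response to SAHA after sonidegib differed from the response without it, by the interaction test in limma, for 5 of the tested members. The difference between these log2 responses was -2.64 for RAET1G, -1.74 for ULBP2, -1.46 for MICA, -0.36 for MICB and -0.55 for CD276. All 5 were negative, where 11.8% of all tested genes were called positive and 19.7% negative by the same test. For CD276 the combination fell against sonidegib (log2 change -0.69) and SAHA against control was not called (-0.14). The difference sets the SAHA response in libraries with 5S ribosomal RNA counts against that in libraries without them. A difference in preparation that moved with sonidegib and altered that response cannot be told apart from the drug. MICB is the weakest of these, since 5 single libraries each end its call when left out.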

How the results depend on the processing

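Over the members' single-gene results, 1035 values under an alternative kept their direction and their side of the threshold, 15 lost a call, 8 gained one and 7 changed sign. No value that was called changed sign. The changes of sign were ULBP1 with SAHA under quantile normalization (-0.028), MICA with sonidegib without sonidegib replicate 3 (-0.022, and up to 0.17 without another library), the combination against control for CD274 under quantile normalization (-0.061), without control replicate 2 (-0.17) and without combination replicate 3 (-0.083, and up to 0.11 without another library), and the combination against SAHA for MICB under median-of-ratios scaling (0.020) and quantile normalization (0.056). The members called lower with sonidegib numbered 2, and 1 with only the compared groups or with no minimum; leaving out a library gave 1 to 2, and the gene lost was CD276. The cause was not tested. Deviations from the group means correlated at -0.059 to 0.111 over 18 pairs of same-numbered libraries, and at -0.107 to 0.097 over pairs with different numbers. No shared deviation of same-numbered libraries was seen, but whether they were handled together is not known. With a replicate block, calls over all genes numbered 4562 higher and 3879 lower for SAHA against control, and the one member call that changed was CD274 with SAHA (0.63, adjusted p = 0.0463). Depth is unknown, so for genes near 1 TPM such as ULBP1, ULBP3 and CD274 the reads behind a value are unknown too.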
